A study of Mus musculus with 8 samples.

Results

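The genes described here are 10 regulators and targets of YAP and TAZ, namely Ccn1, Ccn2, Ankrd1, Amotl2, Lats2, Ajuba, Yap1, Wwtr1, Tead1 and Axl, out of 53465 gene identifiers in the count table. They were taken by symbol as a named set, chosen with earlier results of these data known, and all 10 were counted in every sample. RNA-seq was performed on mouse bone-derived mesenchymal stem cells (MSCs), the stromal cells that can form bone, fat and cartilage. They came from wild-type C57BL/6N mice aged 3 to 5 months. There were 4 samples cultured in hypoxia (2% O2) and 4 in normoxia (21% O2), both in control α-MEM medium. The labels place the purification by flow cytometry on day 12. The study's methods describe a CD45-/Ter-119-/Sca-1+/CD140a+ gate and a sorted population that was divided between the 2 oxygen levels, so that all samples had first grown at 2% O2 and normoxia was a shift away from it. By those methods both groups were cultured further after the sort. A hypoxia value is therefore that of cells kept on at the starting oxygen level, and no sample was kept at 21% O2 throughout.

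YAP (gene Yap1) and TAZ (gene Wwtr1) are transcriptional coactivators that have no DNA-binding domain and act on promoters and enhancers through the TEAD transcription factors. In the Hippo pathway the kinases MST1 and MST2 (Stk4 and Stk3) switch on LATS1 and LATS2, which phosphorylate YAP and TAZ and so keep them out of the nucleus or mark them for degradation. Their activity is set mostly by phosphorylation and location, which transcript counts do not measure, and it responds to cell density, stretching and the stiffness of the matrix. In mesenchymal cells YAP and TAZ are known as mechanical sensors that take part in the choice between bone and fat fates. The question addressed here is whether oxygen level moved the transcripts of the coactivators, of their regulators and of their usual targets.

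TEAD factors recognise the core letters CATTCC, read on either strand (GGAATG on the other). These letters were looked for in the 250 bases before each RefSeq gene start on GRCm38.p6. Promoter entries were found for 8 of the 10 genes, and 7 of these 8 held the core, Lats2 being the exception. Over all genes with a promoter entry, 14.4% of 27025 held it. The stretches are shown because they are the letters through which the coactivators' partner is known to read DNA. Each is 30 bases long, printed 5′ to 3′ on the strand that reads CATTCC, with those letters in capitals.
Ccn1: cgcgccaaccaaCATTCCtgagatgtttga
Ankrd1, farther match: atgtgagagggtCATTCCtttggcagtgac
Ankrd1, nearer match: caggtgaattttCATTCCagacttagtgtc
Amotl2: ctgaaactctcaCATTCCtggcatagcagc
Ajuba, farther match: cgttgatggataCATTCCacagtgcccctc
Ajuba, nearer match: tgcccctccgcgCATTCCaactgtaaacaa
Yap1: tgcgcgtcgctaCATTCCtgcagactcccg
Wwtr1: agcgcctatctgCATTCCtttgagtttacc
Axl: gggtctggtaaaCATTCCtgtagaatttcc

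The Ccn1 stretch lies at chr3:145650071-145650100 on the minus strand, with the core 103 to 98 bases before the start. The core lay closest to the start in Amotl2, at 65 to 60 bases (chr9:102717727-102717756, plus strand), and farthest in Axl, at 233 to 228 bases (chr7:25788949-25788978, plus strand). The Ankrd1 stretches lie at chr19:36120037-36120066 and chr19:36119950-36119979 on the plus strand, and these, like that of Amotl2, fall in an exon of some GENCODE transcript. The remaining stretches are not exonic. They lie at chr14:54577830-54577859 and chr14:54577808-54577837 on the minus strand for Ajuba, at chr9:8004720-8004749 on the plus strand for Yap1 and at chr3:57576029-57576058 on the plus strand for Wwtr1. The core was present before genes that rose in normoxia (Ccn1, Ankrd1) and before genes that did not pass the test (Amotl2, Axl), so its presence in this window did not separate them. Letters of the hypoxia response element (ACGTG or GCGTG, either strand, overlapping matches allowed) were found before 4 of the 8 genes, against 41.5% of all genes.

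The promoter of Ccn1 is shown whole because Ccn1 had the highest level per length of the 10 genes and its window holds both sets of letters. It is the 250 bases before the start (chr3:145649986-145650235 on GRCm38.p6, minus strand, not exonic), with the TEAD core in capitals.
Ccn1 promoter: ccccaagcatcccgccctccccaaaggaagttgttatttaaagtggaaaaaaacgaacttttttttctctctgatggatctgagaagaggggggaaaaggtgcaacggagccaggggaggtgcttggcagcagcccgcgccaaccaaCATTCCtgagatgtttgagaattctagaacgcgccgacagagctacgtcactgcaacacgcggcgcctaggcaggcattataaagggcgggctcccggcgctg

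Total counts were 25132141 in hypoxia replicate 1 and between 12898291 and 13433824 in the other 7 samples. Levels are CPM (counts scaled to library size with TMM factors), and RPKM is that value per kilobase of all annotated exons of a gene. It is the only scale on which genes are compared with each other. These lengths exceed the longest transcript by unequal amounts, so the order of genes with near levels is not settled by it. All 11 MSC markers were counted in every sample, and their summed level was 4421 to 5275 CPM in hypoxia and 4679 to 5056 CPM in normoxia. Of 13 blood cell markers, 12 had an entry and all 12 were counted in every sample, including Ptprc, which encodes the CD45 protein against which the cells were sorted. Their summed level was 616 to 1306 CPM in hypoxia and 681 to 1306 CPM in normoxia, and it was lowest in the samples numbered 1. Of these 12 markers 1 was called higher (Lyz2) and 2 lower in normoxia, against 18.0% and 16.5% of all tested genes, and with the block 1 higher and 8 lower, against 23.3% and 22.7%. Without Lyz2 the sum was 355 to 869 CPM in hypoxia and 281 to 615 CPM in normoxia. The part of these cells in the results below was not tested. Of 8 endothelial markers 2 were at 0 everywhere, and 5 of 6 red cell markers were at 0. In bulk RNA, fewer cells of a type and less RNA per cell cannot be told apart.

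Among the 10 genes, 4 rose in normoxia (Ccn1, Ccn2, Ankrd1 and Lats2), none fell and 6 did not pass the test (limma-trend, adjusted p under 0.05 over all tested genes). All 4 are usual targets of YAP and TAZ, whereas neither coactivator nor Tead1 was called. Over all 14369 tested genes 34.6% were called, 18.0% as higher and 16.5% as lower in normoxia. The 4 of 10 called higher are thus to be read against 18.0%, and the 0 of 10 called lower against 16.5%. The median log2 change was 0.12 over the 10 genes and 0.00 over all tested genes. Scaling by library size alone gave 6 higher and none lower of the 10, and moved the calls over all genes from 2592 higher and 2378 lower to 3611 higher and 1575 lower. With the replicate number as a block, 8 of the 10 were called, against 46.0% of all genes, with 5 higher and 3 lower against 23.3% and 22.7%. With the block and a correction for GC content and length, 8 were called, against 43.2%, with 6 higher and 2 lower against 21.7% and 21.5%. Without overlap between the groups, 4 of the 10 were higher in normoxia (Ccn1, Ccn2, Lats2 and Yap1) and none lower, against 17.1% and 15.5% of all tested genes. In all 4 same-numbered pairs, 6 of the 10 were higher in normoxia and 3 were lower, against 27.7% and 26.8%.

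**Figure D1:**
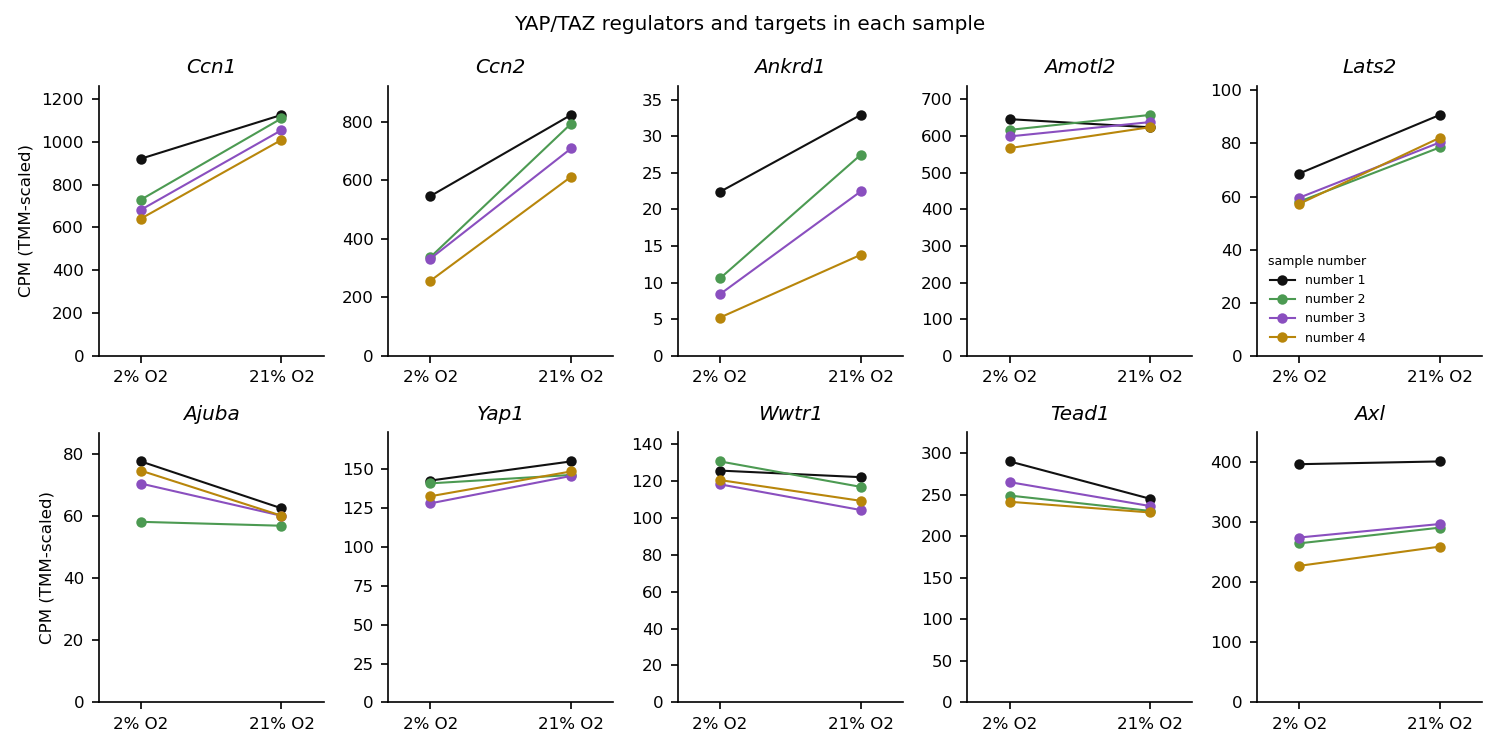
TMM-scaled CPM (vertical axis, from 0) of each of the 10 genes at 2% and 21% O2, with a line joining the samples that carry the same number. Ccn1, Ccn2 and Lats2 rise along every line with no overlap between the oxygen levels, Ankrd1 rises along every line but its groups overlap, and the lines of Yap1, Wwtr1, Tead1, Ajuba, Amotl2 and Axl are much flatter.

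Ccn1 and Ccn2 (also called Cyr61 and Ctgf) encode secreted matricellular proteins that bind integrins and are the most widely used readouts of YAP and TAZ. Ccn1 (ENSMUSG00000028195, chromosome 3, 145646976 to 145649981) was at 921, 730, 682 and 641 CPM in hypoxia replicates 1 to 4 and at 1126, 1110, 1055 and 1009 CPM in normoxia replicates 1 to 4. Every normoxia sample was above every hypoxia sample. Its log2 change was 0.54 ± 0.10 (SE, n = 4 per group), a 1.46-fold rise, with an adjusted p of 0.0015 (limma-trend). The smallest rise was in the pair numbered 1, at 0.29, against 0.60 to 0.65 in the other pairs, since hypoxia replicate 1 stood above the other hypoxia samples.

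Ccn2 (ENSMUSG00000019997, chromosome 10, 24595442 to 24598683) rose more steeply. Its levels were 546, 338, 333 and 257 CPM in hypoxia and 824, 794, 709 and 612 CPM in normoxia, again without overlap. The log2 change was 1.04 ± 0.18 (SE, n = 4 per group), a 2.06-fold rise (limma-trend, adjusted p = 0.0011). Hypoxia replicate 1 was again the highest of its group, and the pair numbered 1 differed by 0.59 against 1.09 to 1.25 in the others. Because Ccn2 rose more than Ccn1, the ratio of Ccn1 to Ccn2 in RPKM was 2.39 to 3.54 in hypoxia and 1.94 to 2.34 in normoxia, values that do not overlap and were not tested. The antisense transcript Gm15270 shares 665 exonic bases with Ccn2 and held at most 4 counts in a sample. Whether reads in these bases were counted for Ccn2 is not known, since the use of strand is not given.

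Ankrd1 encodes CARP, an ankyrin-repeat protein of the nucleus and the sarcomere that is a sensitive target of YAP and TAZ. Ankrd1 (ENSMUSG00000024803, chromosome 19, 36111961 to 36120099) had the largest log2 change of the 10 genes and the lowest level, with 68 to 536 counts per sample. It stood at 22.4, 10.6, 8.43 and 5.24 CPM in hypoxia and at 32.9, 27.4, 22.4 and 13.8 CPM in normoxia. The groups overlapped, as hypoxia replicate 1 was above normoxia replicate 4, although each normoxia sample was above the hypoxia sample of its own number. The log2 change was 1.16 ± 0.36 (SE, n = 4 per group), with 0.55 in the pair numbered 1 and 1.36 to 1.39 in the others (limma-trend, adjusted p = 0.026). This call was lost with the edgeR quasi-likelihood test (adjusted p = 0.051), DESeq2 (adjusted p = 0.097) and limma-voom (adjusted p = 0.055), and when hypoxia replicate 3 or 4 or normoxia replicate 1, 2 or 3 was left out. Its log2 change lay between 0.86 and 1.54 when each sample was left out in turn. With the block its adjusted p was 2e-08.

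Lats2 is both a regulator and a target, since it encodes a kinase that inactivates YAP and TAZ and is itself transcribed in response to them. Lats2 (ENSMUSG00000021959, chromosome 14, 57689662 to 57758388) was at 68.7, 58.1, 59.6 and 57.2 CPM in hypoxia and at 90.7, 78.5, 80.4 and 82.1 CPM in normoxia. The groups did not overlap, and the pairs differed by 0.40 to 0.52, the narrowest spread among the 4 genes that rose. The log2 change was 0.45 ± 0.07 (SE, n = 4 per group; limma-trend, adjusted p = 0.00079). The paralogous kinase Lats1 was at 11.3 ± 0.706 RPKM in hypoxia and 10.5 ± 0.621 RPKM in normoxia (SD, n = 4), with a log2 change of -0.11 (adjusted p = 0.24), which was -0.29 after the GC and length correction (adjusted p = 0.0032 without the block and 5.6e-05 with it). The ratio of Lats1 to Lats2 in RPKM was 1.18 to 1.43 in hypoxia and 0.825 to 0.946 in normoxia, values that do not overlap and were not tested. A same-strand gene model, Gm49361, shares 2955 exonic bases with Lats2 and was listed at 0 counts. Whether reads in these bases were counted for Lats2 is not known. If they were not, its level per length is too low, so these ratios cannot tell which kinase was the more abundant.

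**Figure D2:**
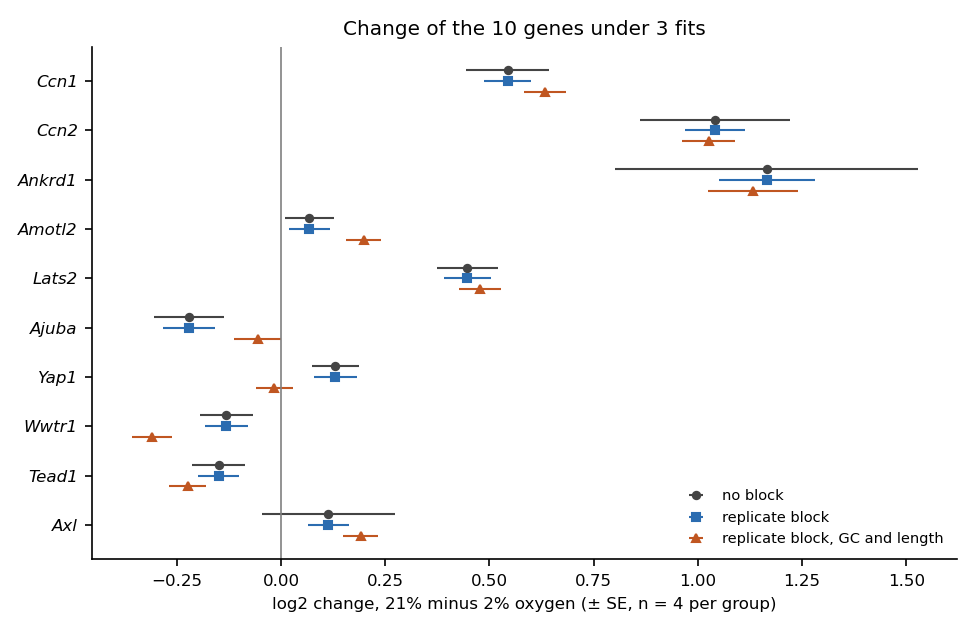
Log2 change of the 10 genes, normoxia minus hypoxia (horizontal axis, points with SE bars, n = 4 per group), in the fit without a block, with the replicate number as a block, and with the block after removal of GC content and length. Ccn1, Ccn2, Ankrd1 and Lats2 lie to the right of 0 in the 3 fits, while the points of Yap1, Wwtr1, Ajuba and Amotl2 move with the correction and that of Yap1 crosses 0.

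The coactivators themselves had small log2 changes of opposite sign that did not pass the test without the block. Yap1 (ENSMUSG00000053110, chromosome 9, 7931999 to 8004596) was at 143, 141, 128 and 133 CPM in hypoxia and at 155, 146, 146 and 148 CPM in normoxia. Wwtr1, which encodes TAZ (ENSMUSG00000027803, chromosome 3, 57455649 to 57575910), was at 126, 131, 118 and 120 CPM in hypoxia and at 122, 117, 104 and 109 CPM in normoxia. All normoxia values of Yap1 were above all hypoxia values by a small margin, whereas those of Wwtr1 overlapped with 2 of the hypoxia values. Yap1 had a log2 change of 0.13 (95% interval 0.01 to 0.25, limma-trend adjusted p = 0.087) and Wwtr1 one of -0.13 (interval -0.27 to 0.01, adjusted p = 0.13). The block called both, Yap1 as higher (adjusted p = 0.038) and Wwtr1 as lower (adjusted p = 0.043). After removal of GC content and length the change of Yap1 was -0.02 (adjusted p = 0.80 with the block) and that of Wwtr1 -0.31 (adjusted p = 4.5e-06 with the block). Their transcripts are poor in GC, 45.2% for Yap1 and 43.9% for Wwtr1, and over 14353 genes the change and the GC content had a Spearman correlation of -0.387, given as a description. The direction of Yap1 thus depended on the correction and that of Wwtr1 did not.

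Per kilobase of all annotated exons, Wwtr1 exceeded Yap1 in every sample. These exons sum to 9257 bases for Yap1, whose longest transcript has 5282, and to 4779 for Wwtr1, whose longest has 4697. Which coactivator had more transcripts therefore cannot be told from RPKM, while a fixed length does not alter how their ratio differs between groups. The ratio of Wwtr1 to Yap1 in RPKM was 1.71, 1.80, 1.79 and 1.76 in hypoxia and 1.53, 1.55, 1.39 and 1.42 in normoxia. The groups did not overlap, and a ratio within a sample is free of the library scaling, but this ratio was computed after the values were seen and was not tested. The sum of both was 40.6 ± 1.85 RPKM in hypoxia and 39.7 ± 2.02 RPKM in normoxia (SD, n = 4), a difference smaller than the spread between samples.

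The TEAD factors carry the coactivators to DNA, and Tead1 was the most abundant of the family. Tead1 (ENSMUSG00000055320, chromosome 7, 112679318 to 112906807) was at 290, 249, 265 and 242 CPM in hypoxia and at 245, 231, 236 and 229 CPM in normoxia. The highest normoxia value lay just above the lowest hypoxia value, and each pair differed in the same direction. Its log2 change was -0.15 ± 0.06 (SE, n = 4 per group), with a limma-trend adjusted p of 0.089, and it passed once the block was added (adjusted p = 0.015). Tead2 and Tead3 fell, with log2 changes of -0.37 (adjusted p = 0.029) and -0.45 (adjusted p = 0.001), and after the GC and length correction with the block Tead3 still passed (adjusted p = 0.00044) and Tead2 did not (adjusted p = 0.071). Tead4, with 25 to 120 counts per sample, had a log2 change of 0.58 (adjusted p = 0.092, with the block 0.010). The 4 TEAD genes summed to 29.7 ± 1.94 RPKM in hypoxia and 25.7 ± 0.494 RPKM in normoxia, with every hypoxia value above every normoxia value. Tead1 made up 64.8 ± 1.33% of that sum in hypoxia and 67.3 ± 1.61% in normoxia (SD, n = 4).

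Vestigial-like (VGLL) proteins are cofactors that compete with YAP and TAZ for the TEADs. Vgll3 was at 41.3 ± 4.94 RPKM in hypoxia and 48.2 ± 3.32 RPKM in normoxia (SD, n = 4). On this scale that is more than the 4 TEAD genes together, but it depends on the exon lengths used, 13570 bases for Tead1 against 9964 in its longest transcript. Its log2 change of 0.23 was at the edge of the threshold (limma-trend, adjusted p = 0.049) and became 0.01 after the GC and length correction with the block (adjusted p = 0.85). Vgll4, which restrains TEAD targets, had a log2 change of 0.08 (adjusted p = 0.44), and 0.23 after the same correction with the block (adjusted p = 0.0013). Vgll1 and Vgll2 were not above 1 count in any sample.

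**Figure D3:**
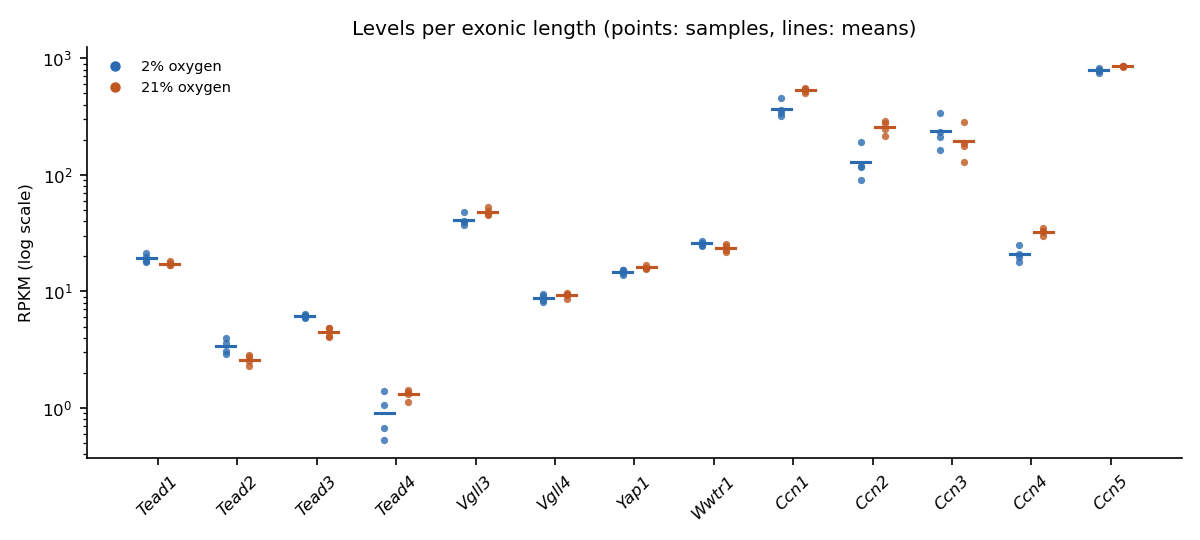
Level per length (RPKM, log axis) of the TEAD, VGLL and CCN genes that passed the filter and of the coactivators, with one point for each of the 4 hypoxia and 4 normoxia samples and a line at each mean. Ccn5 and Ccn1 are the highest, Vgll3 lies above Tead1 and above both coactivators, and Tead4 is the lowest of the genes plotted. Vgll1, Vgll2 and Ccn6, at 2 counts or fewer, are not plotted.

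Amotl2 and Ajuba encode adaptors of opposite effect, an angiomotin that holds YAP and TAZ in the cytoplasm and a LIM protein that binds and restrains LATS kinases. Amotl2 (ENSMUSG00000032531, chromosome 9, 102716672 to 102733418) is also a usual target, yet it was at 646, 616, 599 and 567 CPM in hypoxia and at 623, 657, 638 and 624 CPM in normoxia. The groups overlapped, and the pair numbered 1 differed in the other direction from the rest. Its log2 change was 0.07 (95% interval -0.06 to 0.19, limma-trend adjusted p = 0.40, with the block 0.27). Amotl2 transcripts have a GC content of 56.7%, and after the GC and length correction the change was 0.20 (adjusted p = 0.00024 with the block).

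Ajuba (ENSMUSG00000022178, chromosome 14, 54567472 to 54577558) was the gene with the most negative log2 change of the 10. It stood at 77.6, 58.2, 70.5 and 74.7 CPM in hypoxia and at 62.5, 56.9, 60.1 and 60.1 CPM in normoxia. Hypoxia replicate 2 lay among the normoxia samples and the other 3 hypoxia samples above all of them. The log2 change was -0.22 (95% interval -0.40 to -0.04), past the threshold with the block (adjusted p = 0.0049), DESeq2 (adjusted p = 0.041) and the edgeR test (adjusted p = 0.0499) and not with limma-trend alone (adjusted p = 0.062). Ajuba had the highest GC content of the 10 genes (58.3%), and the corrected change with the block was -0.06 (adjusted p = 0.44).

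Axl encodes a receptor tyrosine kinase of the TAM family that is transcribed in response to YAP and TAZ. Axl (ENSMUSG00000002602, chromosome 7, 25757273 to 25788705) was at 397, 265, 275 and 227 CPM in hypoxia and at 401, 291, 297 and 259 CPM in normoxia. The samples numbered 1 were the highest of both groups, by more than the difference between the group means. The log2 change was 0.11 (95% interval -0.23 to 0.46, limma-trend adjusted p = 0.62), although the pairs differed in the same direction by 0.02 to 0.19. With the block the adjusted p was 0.059, and without normoxia replicate 1 the change was -0.026 (adjusted p = 0.92). After the GC and length correction the blocked fit called it (0.19, adjusted p = 0.00043), as did the blocked fit when both samples numbered 1 were left out (0.14, adjusted p = 0.043). None of the 5 genes of the Axl system passed the test without the block, to be read against 34.6% of all tested genes. The ligand Gas6 was at 719 ± 149 RPKM in hypoxia and 753 ± 128 RPKM in normoxia (SD, n = 4), above the receptors Axl, Tyro3 and Mertk. Its log2 change was 0.08 (adjusted p = 0.73). Tyro3 had a log2 change of 0.20 (adjusted p = 0.15) and Mertk one of -0.04 (adjusted p = 0.91). Only the ligand Pros1 passed with the block (log2 change 0.16, adjusted p = 0.010), when 46.0% of all tested genes did. After the GC and length correction with the block 3 of the 5 were called higher, Axl, Gas6 (0.23, adjusted p = 7.8e-05) and Tyro3 (0.30, adjusted p = 0.0066), against 21.7% of all genes, and the change of Pros1 was -0.02.

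Samples numbered 1 had the highest value of each oxygen level for 8 of the 10 genes, all but Amotl2 and Wwtr1, and the same samples had the lowest summed blood cell markers. The part of other cells in these levels was not tested. Leaving out both samples numbered 1, an alternative chosen after seeing the data, gave the same number of called genes, 4 of the 10 without the block. With the block it gave 7. Over all 14470 genes tested in these fits, 4978 were called without the block and 6107 with it.

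In order of level per length, the 10 genes spanned from Ccn1 to Ankrd1 in both conditions. In hypoxia the means were 368 RPKM for Ccn1, 129 for Ccn2, 96.5 for Amotl2, 57.8 for Axl, 25.9 for Wwtr1, 19.3 for Ajuba, 19.3 for Tead1, 14.7 for Yap1, 8.74 for Lats2 and 4.04 for Ankrd1. Ccn2 and Amotl2 were not separated beyond the spread of Ccn2 in hypoxia (SD 43.4), nor were Ajuba and Tead1. In normoxia the means were 532 RPKM for Ccn1, 257 for Ccn2, 101 for Amotl2, 62.0 for Axl, 23.7 for Wwtr1, 17.3 for Tead1, 16.4 for Ajuba, 16.1 for Yap1, 11.9 for Lats2 and 8.37 for Ankrd1. Ajuba and Yap1 then lay within 1 SD of each other. The order of Wwtr1, Ajuba, Tead1 and Yap1 is not settled, as it rests on the length of all annotated exons. That length is 9257 bases for Yap1 and 13570 for Tead1, against 5282 and 9964 in the longest transcript. For Ajuba it is 3646 against 3397, and for Wwtr1 4779 against 4697. The places of Lats2 and Ccn2 may differ if reads in bases shared with other gene models were not counted for them.

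The wider readout was a list of 22 YAP and TAZ target genes, 6 of them among the 10 above. It was written from general knowledge but with earlier results of these data known. In normoxia 12 rose (54.5%, against 18.0% of all tested genes), 1 fell (4.55%, against 16.5%) and 9 did not pass, and the median log2 change was 0.22. Of the 16 target genes outside the 10, 8 rose and 1 fell, with a median of 0.19. The counts were the same with the block, against 23.3% higher and 22.7% lower of all tested genes. After the GC and length correction with the block 16 of 22 were called higher and none lower, against 21.7% and 21.5%. Higher in all 4 pairs were 15 of the 22, and 1 was lower in all 4, against 27.7% and 26.8% of all tested genes. The count of 13 called dropped to 7 without hypoxia replicate 3 and to 8 without hypoxia replicate 4. In those fits 3838 and 4004 of all tested genes were called, against 4970 with all samples.

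F3, which encodes tissue factor, the trigger of blood clotting, had the largest change of the list. It was at 99.8, 51.2, 41.9 and 38.4 CPM in hypoxia and at 184, 150, 132 and 118 CPM in normoxia, without overlap and again with hypoxia replicate 1 the highest of its group. The log2 change was 1.42 ± 0.24 (SE, n = 4 per group; limma-trend, adjusted p = 0.001). Ccdc80, a secreted protein of the extracellular matrix, rose by 0.82 (adjusted p = 0.0001), and Nt5e, the ecto-5′-nucleotidase CD73 that makes adenosine, rose by 0.59 (adjusted p = 0.0024). Smaller rises were those of Crim1 (0.37), which binds bone morphogenetic proteins, Myof (0.28), a membrane repair protein, Asap1 (0.25), an ARF GTPase-activating protein, Ptpn14 (0.24), a phosphatase that restrains YAP, and Tgfb2 (0.21), a TGF-beta ligand. The gene that fell was Arhgef17 (-0.21). Arhgef17 and Tgfb2 did not pass after the GC and length correction.

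**Figure D4:**
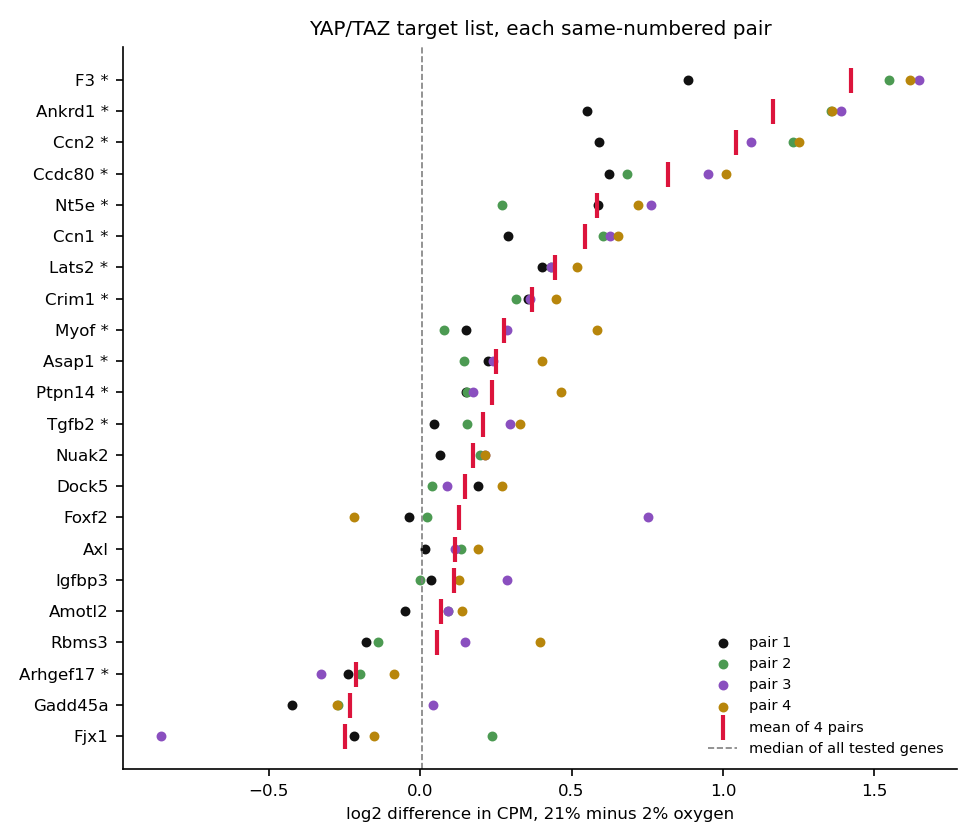
Log2 difference in CPM, normoxia minus hypoxia, in each of the 4 same-numbered pairs (dots) and their mean (red bar) for the 22 target genes, ordered by mean. An asterisk marks an adjusted p under 0.05 (limma-trend, no block) and the dashed line is the median of all tested genes. F3, Ankrd1 and Ccn2 lie farthest to the right, with the pair numbered 1 the smallest in all 3.

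The CCN family holds 6 secreted proteins, of which Ccn1 and Ccn2 are described above. Of the 5 that could be tested, 3 rose, against 18.0% of all tested genes, the third being Ccn4 (WISP1, a Wnt target known from osteoblasts). Ccn4 was at 139, 110, 117 and 100 CPM in hypoxia and at 165, 184, 193 and 181 CPM in normoxia, without overlap, with a log2 change of 0.64 (limma-trend, adjusted p = 0.00034). Ccn5 had the highest level per length of the family, 787 ± 36.9 RPKM in hypoxia and 854 ± 7.93 RPKM in normoxia (SD, n = 4), and a log2 change of 0.12 (adjusted p = 0.16). After the GC and length correction it was 0.32 and passed (adjusted p = 0.0016 without the block). In that fit 4 of the 5 were called higher, against 15.1% of all genes. Ccn3 went the other way from Ccn1 and Ccn2, with a log2 change of -0.29 that passed only with the block (adjusted p = 0.36 without it and 2.1e-05 with it). Ccn6 was at 2 counts or fewer in every sample.

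Upstream, 33 genes of the Hippo pathway were tested, 6 of the 10 genes above among them. In normoxia 10 rose (30.3%) and 6 fell (18.2%), against 18.0% and 16.5% of all tested genes, and the median log2 change was 0.04. Among the 11 core kinases, kinase activators and their adaptors 5 rose and none fell, to be read, like the counts of the other groups, against the same 18.0% and 16.5%. They were Lats2, Sav1 (0.18), the scaffold of the MST kinases, Mob1b (0.42), a LATS cofactor, and Taok1 (0.29) and Map4k4 (0.38), kinases that act in parallel with MST. Among the 16 upstream and scaffold genes 5 rose and 4 fell. Strn3, a striatin scaffold of the phosphatase complex that opposes MST, rose by 0.70, and Rassf1, Frmd6, Wwc2 and Ptpn14 by 0.42, 0.40, 0.37 and 0.24. The atypical cadherins Dchs1 and Fat4, which bind each other across cells, fell by 1.26 and 0.57, Wtip by 0.44 and the angiomotin Amot by 0.41. Among the 6 coactivator and TEAD genes none rose and Tead2 and Tead3 fell. After the GC and length correction with the block Sav1 (-0.04), Wtip (-0.16, adjusted p = 0.055) and Tead2 no longer passed, and Lats1, Mob1a (-0.16, adjusted p = 0.0044), Amotl2, Wwtr1, Tead1 and Tead4 (0.74, adjusted p = 0.0009) did. Under the correction without the block Taok1 (0.13, adjusted p = 0.13) and Rassf1 (0.30, adjusted p = 0.13) did not pass either.

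Dchs1 was the Hippo gene with the largest change, and it was low in level, with 34 to 155 counts per sample. It stood at 6.48, 8.10, 8.74 and 9.71 CPM in hypoxia and at 2.52, 2.81, 4.47 and 3.69 CPM in normoxia, without overlap (limma-trend, adjusted p = 0.00049). Strn3 was at 60.3, 60.1, 45.5 and 49.2 CPM in hypoxia and at 93.6, 88.9, 86.2 and 79.8 CPM in normoxia (adjusted p = 0.00026). Members with opposed roles therefore rose together, as Lats2 and Mob1b inactivate the coactivators and Strn3 belongs to a complex that favours them.

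**Figure D5:**
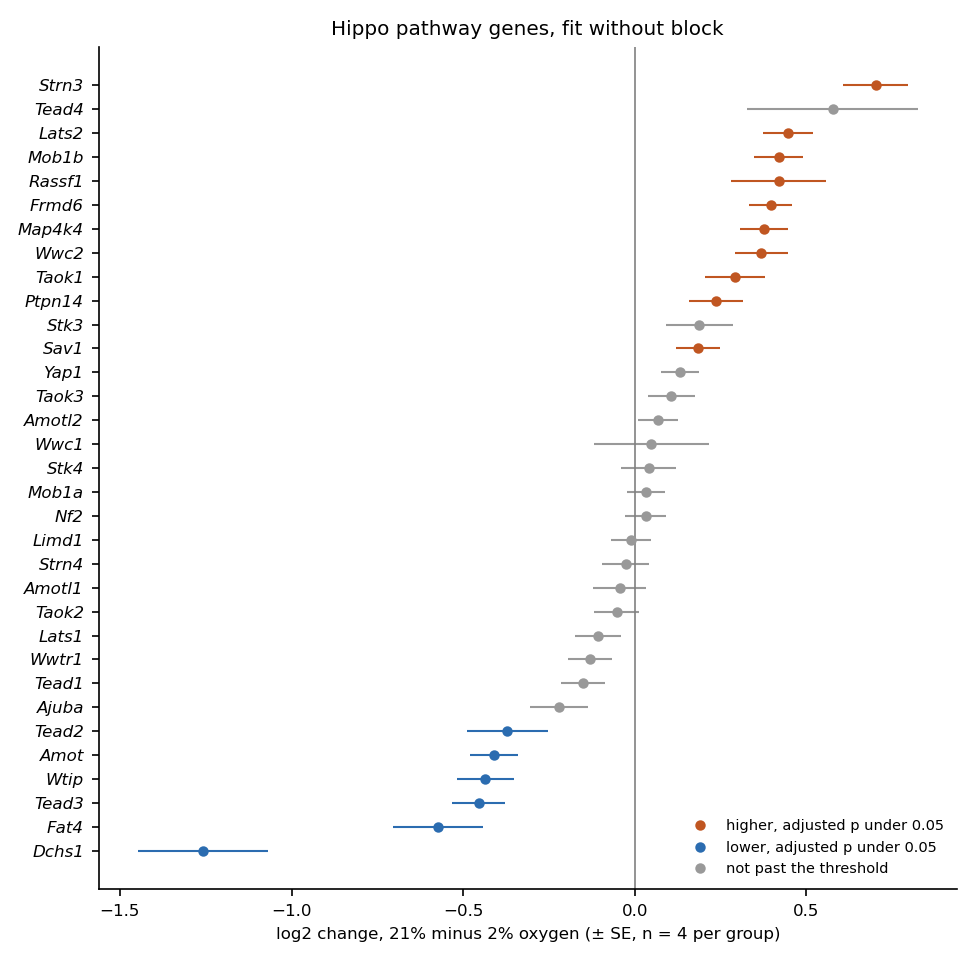
Log2 change, normoxia minus hypoxia, of the 33 Hippo pathway genes (points with SE bars, n = 4 per group), coloured by the call of the fit without a block. Strn3 is the highest at 0.70 and Dchs1 the lowest at -1.26, while the coactivators Yap1 and Wwtr1 lie in grey near 0.

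YAP and TAZ share targets and stimuli with SRF and its cofactors MRTF, which read the pool of free actin. Of 14 genes of that group, 1 rose (Tpm1, 0.35) and 5 fell, namely Acta2 (-0.49), Tagln (-0.42), Cnn1 (-0.41), Cnn2 (-0.23) and Mrtfa (-0.18), with a median of -0.16, against 18.0% and 16.5% of all tested genes. These are contractile and cytoskeletal genes, apart from the cofactor Mrtfa itself. After the GC and length correction with the block 5 were called higher and 4 lower, against 21.7% and 21.5%. Mrtfa (-0.02, adjusted p = 0.77) and Tagln (-0.32, adjusted p = 0.060) no longer passed in that fit, and Tagln had 54 to 147 counts per sample. Under the correction without the block 3 were called higher and 1 lower, against 15.1% and 14.4% of all genes. Ccn1 is also an immediate early gene, and of 14 such genes 6 rose (Fos, Nr4a1, Fosl1, Ier3, Dusp1 and Junb, by 0.61 to 0.80) and Egr1 fell by 0.66, which is 42.9% higher and 7.14% lower against 18.0% and 16.5% of all tested genes. Fos and Nr4a1 were low, with 38 to 137 and 37 to 100 counts per sample. The groups of Nr4a1, Fosl1 and Dusp1 overlapped, and Fosl1 lost its call in 10 of 23 alternatives.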

How the data were processed

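RNA-seq libraries of total RNA from 8 samples were sequenced by the authors as single-end reads. Per the submitters' processing notes and the study's methods, zUMIs 2.2.1, STAR 2.6.1a, samtools 1.9 and featureCounts of Rsubread 1.32.4 were used with the GRCm38 (mm10) genome and Ensembl annotation GRCm38.91, and the authors deposited raw counts per gene. Whether counting used strand or multiply mapped reads is not given in the sources used here.

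Symbols and positions came from GENCODE M21 (53274 of 53465 identifiers). Genes were kept by filterByExpr of edgeR 4.0.16 (minimum count 5), leaving 14369 genes with 99.93% of the counts. Log2 CPM (TMM factors, prior count 3) was compared by limma-trend (limma 3.58.1, R 4.3.3) without a block, after the study's methods, with Benjamini-Hochberg adjustment over all tested genes. Changes are normoxia minus hypoxia and understate those of low genes. The edgeR quasi-likelihood test, DESeq2 1.42.0, limma-voom, other scalings, filters and prior counts, a replicate block, a GC and length correction (splines of 5 degrees of freedom for 14353 genes, which also remove true change that follows these properties) and each sample left out in turn were alternatives. The model fits were tested on simulated data.

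The numbers 1 to 4 were taken as pairs. The study divides a sorted population between oxygen levels, and deviations of same-numbered samples from their group means correlated across genes (0.474, 0.275, 0.249 and 0.172). The study describes the samples as independent biological replicates. No 2 replicates agreed within sampling noise (chi-square per degree of freedom at least 3.66).

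The 10 genes and the gene lists were chosen with earlier results of these data known. Genes named are the 10, list genes with an adjusted p under 0.05, the TEAD, VGLL, CCN and Axl system genes, and the 5 genes most like the gene of the 10 with the largest change. Lats1 and Mob1a were named after their values were seen. At these depths 3 counts are 0.119 to 0.233 CPM, which covers counting error only. Promoter letters are from RefSeq on GRCm38.p6. The promoter table used holds no entry for Ccn2 and Tead1.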

Additional observations from a re-analysis of the deposited data

Results flagged for a closer look

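The total count of hypoxia replicate 1 (25132141) stood apart from the other 3 hypoxia samples, with a gap to the nearest of 0.976 of the whole range, above Dixon's 95% critical value for 4 samples. It was 1 of 24 sets of 4 samples examined, the 10 genes in both groups among them, and chance gives about 1 in 20. For 8 of the 10 genes, all but Amotl2 and Wwtr1, this sample was the highest in hypoxia and the normoxia sample with the same number, of ordinary depth, the highest in normoxia. The part of depth in these levels was not tested.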

How the results depend on the processing

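Over all tested genes 4970 were called, 2925 at an adjusted p under 0.01, and 3838 to 5423 with 1 sample left out. Of the 10 genes, 4 were called without the block, against 34.6% of all tested genes. The replicate block that follows the pairing called 8, against 46.0%. The GC and length correction called 7, against 4238 of 14353 genes, and both together called 8, against 43.2%. With the block and both samples numbered 1 left out (added after seeing the data), 7 were called, against 6107 of 14470 genes. With 1 sample left out, 3 to 5 were called. Of the 22 targets 13 were called, against 34.6% of all tested genes, and 6 at an adjusted p under 0.01. With 1 sample left out 7 to 13 were called, 7 without hypoxia replicate 3 and 8 without hypoxia replicate 4. The 16 calls among the 33 Hippo genes became 11 to 16 with 1 sample left out. With the block they became 21, against 46.0% of all tested genes. Signs reversed for Yap1 under the GC and length correction (-0.016, with and without the block), Axl without normoxia replicate 1 (-0.026, range -0.026 to 0.27 over samples left out in turn), Sav1 (-0.043) and Pros1 (-0.019) under that correction with and without the block, Gas6 without hypoxia replicate 1 (-0.029) and without normoxia replicate 2 (-0.040, range -0.040 to 0.20), and Mertk under limma-voom (0.073), library size only (0.040) and without hypoxia replicate 3 (0.040), hypoxia replicate 4 (0.064) or normoxia replicate 1 (0.105, range -0.26 to 0.105). The cause was not tested. Of 1425 values of single genes under alternatives, 1198 kept direction and side of the threshold, 173 lost the call and 40 gained it. The block changed no call of the 10 other than those given with the values of Yap1, Wwtr1, Tead1 and Ajuba. Of the 10 genes Ankrd1 had the fewest counts, 68 to 536 per sample.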

Other observations

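The 5 genes outside the 10 whose level over the 8 samples was most like that of Ankrd1, the gene of the 10 with the largest change, were Htr2a, Cxcl14, Kcnj15, F3 and Lif. Likeness was the root mean square difference of centred log2 CPM over the 8 samples, which was 0.276, 0.283, 0.285, 0.293 and 0.309 in that order. Their log2 changes, normoxia minus hypoxia, were 1.36 for Htr2a, a serotonin receptor, 1.65 for Cxcl14, a chemokine, 1.00 for Kcnj15, a potassium channel, 1.42 for F3 and 1.16 for Lif, a cytokine of the interleukin-6 family. They were picked for this pattern, so these values are a description.

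Of the 11 MSC markers, Cd44, a hyaluronan receptor, rose by 0.72, Nt5e by 0.59 and Itgb1, the integrin beta 1 chain, by 0.44, and Eng, a TGF-beta co-receptor, fell by 0.27. These 3 called higher and 1 lower are to be read against 18.0% and 16.5% of all tested genes. The groups of Eng overlapped, and its call was lost in 11 of 23 alternatives. After the GC and length correction without the block its change was -0.12 (adjusted p = 0.32). With the replicate block 5 of the 11 were called higher and 5 lower, against 23.3% and 22.7% of all genes. Of the blood cell markers, Lyz2 rose by 0.56, and Cd52 and Laptm5 fell by 0.58 and 0.91. Of 23 alternatives, the call of Lyz2 was lost in 3, that of Cd52 in 12 and that of Laptm5 in 6.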
